A study of Danio rerio with 48 samples.

Results

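Head transcriptomes of zebrafish larvae kept in 0.88 µM perfluorooctane sulfonic acid (PFOS) until 4 days post fertilisation (dpf) were compared with those of larvae kept in the vehicle alone, dimethyl sulfoxide (DMSO). Each group held 6 pools of 15 heads cut in front of the swim bladder, so 12 of the 48 libraries of the series entered, chosen by concentration and age in the labels. All larvae came from a mixed wild-type line into which AB and/or Tupfel long fin fish are bred, and every group, controls included, carried 0.4% DMSO. Embryos sat singly in 96-well plates at 26.0 °C, and the solutions were renewed daily from day 1 to the day of sampling. The series also holds 1.57 and 2.8 µM PFOS at 4 dpf, and the same 4 treatments at 5 dpf, with 6 pools each. Its question is what changes in gene expression go along with altered larval movement in a test of light and dark. Whether the pools of a group stem from separate clutches is not in the labels, and p-values therefore measure only how these pools vary.

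PFOS is a fluorinated surfactant with the shape of a fatty acid. It binds serum albumin and fatty acid binding proteins, collects in liver and blood, and activates peroxisome proliferator-activated receptors (PPARs), the nuclear receptors that switch on fatty acid oxidation. In fish and rodents it is also studied for effects on thyroid hormone and on the nervous system, where inhibitory transmission by GABA and glycine is of interest because GABA-blocking drugs alter movement in the light and dark test. Heads cut in front of the swim bladder hold brain, eyes, jaw and gill skeleton and the thyroid follicles, and can take in part of the liver and gut, which lie behind them.

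The deposited counts of the 12 libraries summed to between 19473665 and 25373729, and 20021 of 25377 genes had enough reads to test. The tissue in the labels matched its defining genes: the neuronal gene elavl3 had a median of 338 CPM (counts scaled to a common library size) in DMSO and 310 in 0.88 µM, rod opsin rho had 9250 and 10200, and the ultraviolet cone opsin opn1sw1 had 7810 and 7890. Each library's median correlation with other 4 dpf libraries lay between 0.961 and 0.978. Pairs of pools from the same group correlated at a median of 0.972 (30 pairs) and pairs from different groups at 0.971 (36 pairs). Pools H and I of 0.88 µM stood apart from the other 10 on the first principal component, which held 31% of the variance, with scores of 69.9 and 64.3 against -42.1 to 20.7. Values without both pools are given beside many of the results.

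No gene passed an adjusted p of 0.05 between 0.88 µM PFOS and DMSO at 4 dpf: 0 of 20021 (0%) by edgeR's quasi-likelihood test, with a lowest adjusted p of 0.9998. At an unadjusted p under 0.05 there were 392 genes (1.96%), 236 of them higher in PFOS (1.18%) and 156 lower (0.779%). In this fit the share lay below the fraction of 0.05 that such a threshold passes on average when nothing differs. The count depended on the fit. It was 1339 (881 higher, 458 lower) with pool letters as a block and 1142 (465 higher, 677 lower) with sample quality weights. Without pools H and I it was 260. DESeq2 also called 0 genes, and had 489 at an unadjusted p under 0.05. Over all genes the median log2 fold change was 0.01, with 10220 genes above 0 and 9800 below it. Single genes described below are therefore descriptions of pools and no calls. Pool spread set the precision: standard errors of the log2 fold changes had a median of 0.25, and for 79.1% of genes the 95% interval of the log2 fold change lay wholly between -1 and 1. Log2 fold changes past 1 in either direction were fitted for 246 genes (1.23%), and 23 of these were among the 13893 genes with a mean of at least 1 log2 CPM.

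**Figure D1:**
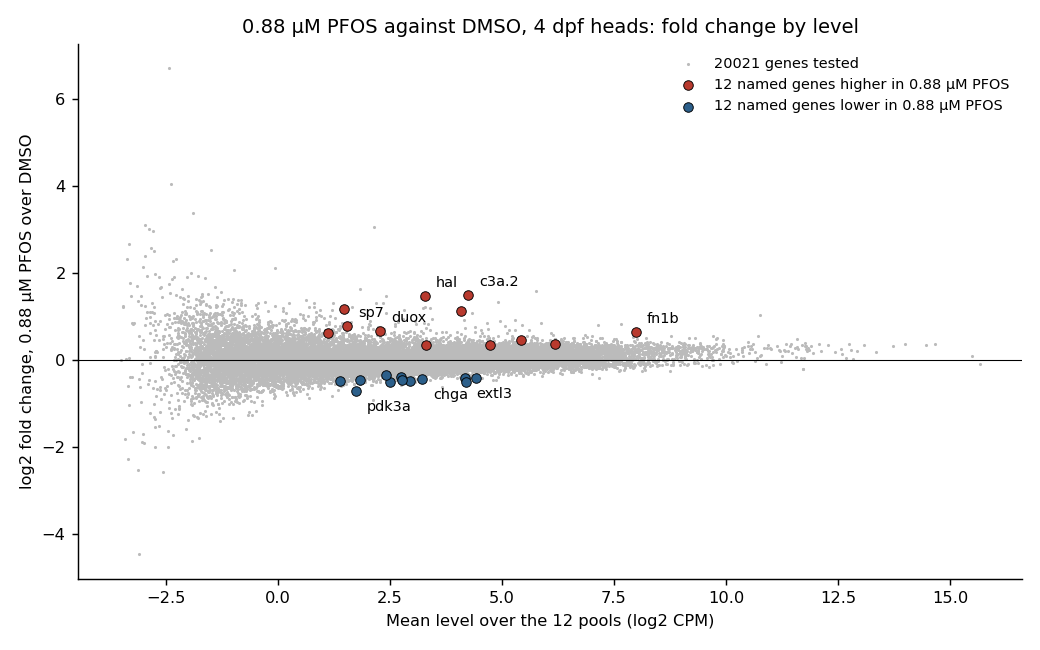
Each grey point is 1 of the 20021 genes tested, placed by its mean level over the 12 pools (log2 CPM, x axis) and its log2 fold change of 0.88 µM PFOS over DMSO at 4 dpf (y axis); the 12 higher and 12 lower named genes are coloured. The cloud narrows with level and centres on 0.01, and the named genes, chosen for the smallest unadjusted p, sit between 0.34 and 1.49 in size, in or near the cloud.

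Among genes with a mean of at least 1 log2 CPM, the 12 with the smallest unadjusted p in each direction were taken, so their 4 dpf differences are selected by this contrast. Their log2 fold changes were between 0.34 and 1.49 in size with standard errors of 0.13 to 0.54, unadjusted p went up to 0.0177, and every adjusted p of edgeR's test was about 1. In 2 of the 24, duox and extl3, the pools of the groups did not overlap. Over all 20021 genes tested this held for 5 higher (0.025%) and 7 lower (0.035%). A small p, by which the 24 were chosen, favours such pools, so the separation is no further evidence for the 2 genes.

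The higher genes included duox, sp7 and 4 genes of the liver. Dual oxidase duox (chromosome 25, 31958911 to 32018991, GRCz11), which makes the hydrogen peroxide that thyroid peroxidase needs and also acts in epithelia, ran from 3.49 to 4.21 CPM in DMSO with a median of 3.88, and from 4.54 to 7.24 with a median of 6.34 in 0.88 µM. The lowest PFOS pool, B, lay above the highest DMSO pool, I. The log2 fold change was 0.67 ± 0.23 (SE), unadjusted p = 0.00494 by edgeR, and 0.54 without pools H and I. The osteoblast transcription factor sp7 (osterix) ranged from 1.47 to 3.27 CPM in DMSO (median 2.30) and from 2.52 to 7.58 in 0.88 µM (median 3.38). Pool I alone gave the 7.58 and the other 5 PFOS pools reached at most 3.41, close to the highest DMSO pool; the log2 fold change of 0.79 ± 0.26 was 0.48 without H and I. The interferon regulatory factor irf2a ranged from 1.33 to 2.15 CPM in DMSO (median 1.67) and from 1.76 to 3.33 in 0.88 µM (median 2.58). In irf2a 5 of 6 PFOS pools lay above every DMSO pool, and the log2 fold change was 0.62 ± 0.20, and 0.66 without H and I.

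Of the other higher genes, 4 encode liver products or enzymes. Complement component c3a.2 ranged from 4.29 to 33.6 CPM in DMSO (median 11.3) and from 15.1 to 83.9 in 0.88 µM (median 31.0), a log2 fold change of 1.49 ± 0.53. Histidine ammonia-lyase hal, which starts histidine breakdown, ranged from 3.38 to 13.7 CPM in DMSO (median 5.50) and from 7.04 to 46.6 in 0.88 µM (median 16.0), a log2 fold change of 1.46 ± 0.54. The groups overlapped in both: DMSO pool A held the 33.6 of c3a.2, above 3 of the 6 PFOS pools, and DMSO pools A and I reached into the PFOS range of hal. Without pools H and I the log2 fold change was 1.27 for c3a.2 and 0.84 for hal. The clotting factor gene listed as F7 (1 of many) had 1.18 ± 0.41 and dpydb, which breaks down pyrimidines, 1.13 ± 0.42; without H and I these were 0.94 and 0.95. The c3a genes and F7 belong to families of close copies among which the counting may have split reads.

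The remaining 5 higher genes follow. Fibronectin fn1b, an extracellular matrix protein, ranged from 159 to 322 CPM in DMSO (median 187) and from 221 to 434 in 0.88 µM (median 330). The groups overlapped through DMSO pools I and D, whose 322 and 234 CPM lay above the lowest PFOS pool; the log2 fold change was 0.64 ± 0.24, and 0.58 without H and I. For the receptor fgfr1b of fibroblast growth factors (0.45 ± 0.17), the cell adhesion protein sdk1a (0.35 ± 0.13), the netrin-family receptor neo1b (0.36 ± 0.14) and ssfa2 (0.34 ± 0.13), pools H and I held the 2 highest values of the 12. Without them the log2 fold changes were 0.18, 0.13, 0.07 and 0.19.

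Of the lower genes, chromogranin A, chga, a protein of the dense-core vesicles of neuroendocrine cells, ranged from 8.18 to 14.3 CPM in DMSO (median 10.7) and from 7.36 to 8.94 in 0.88 µM (median 7.83). In chga 4 of 6 PFOS pools lay below every DMSO pool, and the log2 fold change was -0.44 ± 0.14 (unadjusted p = 0.00228 by edgeR), and -0.38 without H and I. The cargo receptor ergic3 of the early secretory pathway ranged from 6.87 to 11.1 CPM in DMSO and from 4.00 to 8.49 in 0.88 µM, where H and I were lowest; its -0.49 ± 0.16 was -0.27 without them. The membrane fusion protein napgb (gamma-SNAP) ranged from 13.7 to 28.5 CPM in DMSO and from 11.7 to 18.1 in 0.88 µM, a log2 fold change of -0.51 ± 0.20, and -0.49 without H and I. The subunit bloc1s6 of the complex that builds lysosome-related organelles had -0.52 ± 0.20, and the syntaxin-binding protein stxbp4 had -0.48 ± 0.19, and -0.31 without H and I.

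The glycosyltransferase extl3 of heparan sulfate synthesis (chromosome 20, 49940818 to 50014937) ranged from 19.1 to 23.3 CPM in DMSO (median 21.1) and from 11.6 to 17.4 in 0.88 µM (median 16.7). No PFOS pool of extl3 reached the lowest DMSO pool; the log2 fold change was -0.43 ± 0.15, and -0.30 without H and I. The homeobox gene shox, which acts in skeletal growth, ranged from 20.4 to 30.5 CPM in DMSO and from 15.1 to 23.0 in 0.88 µM, a log2 fold change of -0.43 ± 0.15. The histone acetyltransferase kat2a ranged from 6.65 to 9.02 CPM in DMSO and from 4.15 to 7.24 in 0.88 µM, a log2 fold change of -0.40 ± 0.14, and -0.26 without H and I. In kat2a 5 of 6 PFOS pools lay below every DMSO pool. The mitochondrial kinase pdk3a, which inhibits pyruvate dehydrogenase, had -0.72 ± 0.28 and was lowest in pools H and I, both below the lowest DMSO pool at 2.56 CPM; without them it had -0.42. The other 3 were ubash3bb (-0.48 ± 0.18), hmgxb3 (-0.35 ± 0.14) and the cannabinoid receptor interacting protein cnrip1b (-0.46 ± 0.19), of which the last had -0.23 without H and I. Without H and I, 10 of the 24 genes had an unadjusted p under 0.05, and all 24 kept their direction. That fit reuses most of the pools that chose the genes, so this is no separate evidence for them.

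**Figure D2:**
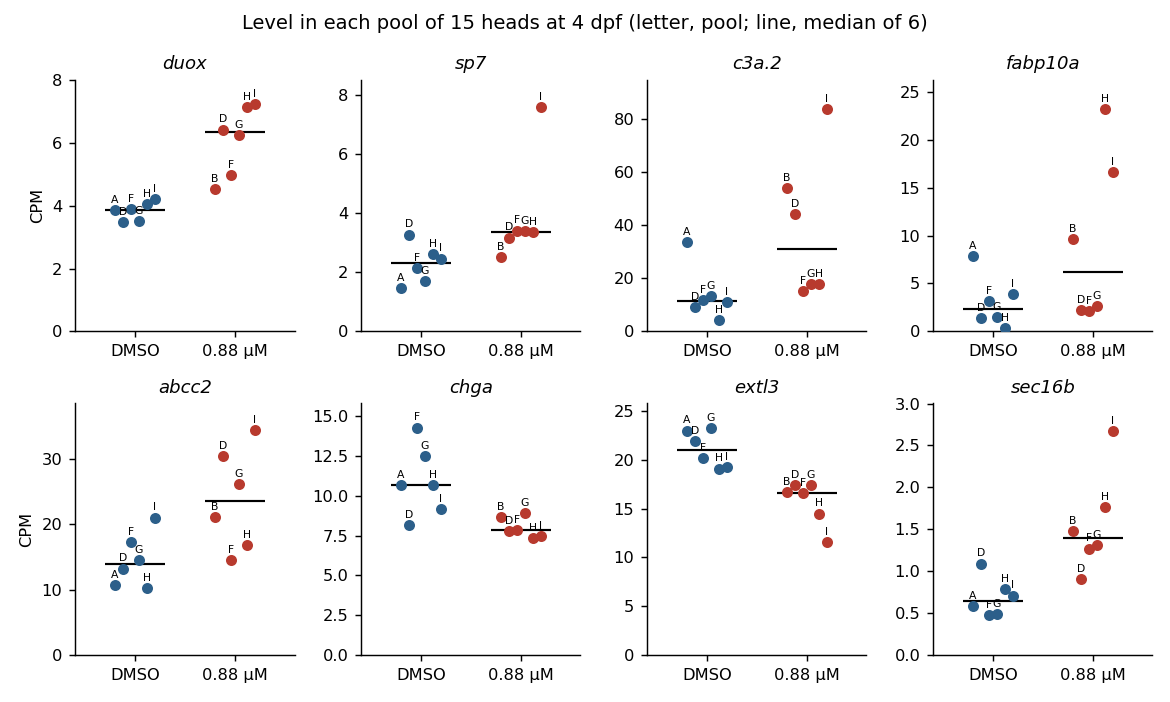
Each point is the level of a gene (CPM, y axis from 0) in 1 pool of 15 heads at 4 dpf, blue for DMSO and red for 0.88 µM PFOS, with the pool's letter beside it and the median of 6 as a line. In duox every PFOS pool (4.54 and above) lies over every DMSO pool (4.21 and below) and in extl3 the order is reversed (17.4 and below against 19.1 and above), while fabp10a and c3a.2 spread widely within both groups.

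The pools of the 2 groups did not overlap for 5 genes higher in PFOS (0.025% of those tested) and 7 lower (0.035%). These were named after their values were seen. The higher ones were duox, gpr182 (a receptor of endothelium), si:ch211-270n8.1, CR356233.1 and si:ch1073-184j22.1, and the lower ones were extl3, znf982, morn3, bmt2, cntln, nsmce1 and CU463231.2. Most stood at low levels: gpr182 had medians of 0.524 CPM in 0.88 µM and 0.277 in DMSO, and znf982 had 1.15 and 2.22. The smallest unadjusted p of all genes, 0.000338 by edgeR, belonged to sec16b, which acts at the sites where cargo leaves the endoplasmic reticulum. It ranged from 0.475 to 1.09 CPM in DMSO (median 0.643) and from 0.907 to 2.67 in 0.88 µM (median 1.39), so 5 of 6 PFOS pools lay above every DMSO pool. The log2 fold change was 1.19 ± 0.31, and 0.87 without H and I.

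Genes of liver and gut had the highest medians of the 48 gene lists examined and spread widely between pools. All 27 hepatocyte genes had a log2 fold change above 0, against 10220 of 20021 over all genes, with a median of 0.82 against 0.01, and none passed an adjusted p of 0.05. At an unadjusted p under 0.05 stood 4 of the 27. The share over all genes was 1.96%, the value to set beside this count and those of later lists. The liver fatty acid binding protein fabp10a ranged from 0.289 to 7.83 CPM in DMSO (median 2.32) and up to 23.2 in 0.88 µM (median 6.14). Pools H, I and B held 23.2, 16.6 and 9.67 CPM of it, and the other 3 PFOS pools lay within the DMSO range; its log2 fold change of 1.63 ± 0.71 was 0.46 without H and I. The vitamin D carrier gc ranged from 3.92 to 11.9 CPM in DMSO (median 4.91) and from 7.44 to 28.7 in 0.88 µM (median 14.9), with a 95% interval of 0.16 to 2.23 for the log2 fold change, and a value of 1.07 without H and I. The apolipoprotein apoa2 had medians of 20.6 CPM in DMSO and 44.2 in 0.88 µM, with 196 in pool I alone, and its 1.33 ± 0.66 was 0.40 without H and I. The plasma protein gene ahsg1, at medians of 0.266 and 0.521 CPM, had 1.33 ± 0.57. Smaller differences were fitted for the retinol carrier rbp4 (0.46 ± 0.39), whose median was 16.3 CPM in 0.88 µM and 20.7 in DMSO, and for the adhesive plasma protein vtna (0.15 ± 0.56).

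As a summed level, the 27 hepatocyte genes ranged from 218 to 1226 CPM in the DMSO pools (median 321) and from 347 to 1608 in the 0.88 µM pools (median 781). None was at 0 in all 12 pools, and 2 were at 0 in at least 1 pool. The mean log2 CPM of the list was 2.01 ± 0.85 (SD, n = 6) in DMSO and 2.79 ± 0.78 (n = 6) in 0.88 µM. The difference was smaller than the SD within DMSO, and DMSO pools I (3.23) and A (2.83) lay above PFOS pools G (2.48), H and F (1.82). Leaving out PFOS pool B lowered the list median to 0.52 and leaving out DMSO pool I raised it to 1.22; without H and I it was 0.85, with 25 of 27 above 0. More or fewer liver cells in a pool and more or less RNA per liver cell cannot be told apart in such pooled heads. The pools also differed in neuron markers: PFOS pools B and D and DMSO pool I had the lowest mean levels of neuron markers (6.85, 6.78 and 6.80 log2 CPM) and were among the 4 highest in hepatocyte level, whereas DMSO pool D, at 7.00, was the lowest of the 12 in hepatocyte level at 1.19. The part of these differences in tissue markers in the liver result was not tested.

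Of 25 intestine genes, 24 had a log2 fold change above 0, with a median of 0.54. Only pla2g12b of them, at 1.31 ± 0.55, had an unadjusted p under 0.05, against 1.96% of all genes. The summed level of the 25 ranged from 142 to 351 CPM in DMSO (median 259) and from 190 to 720 in 0.88 µM (median 269). Of the 25, 9 were at 0 in at least 1 pool. The apolipoprotein apobb.1, a carrier of dietary lipid, had medians of 97.0 CPM in DMSO and 133 in 0.88 µM (0.40 ± 0.50), and the intestinal fatty acid binding protein fabp2 had 0.581 and 0.693 (0.74 ± 0.68). Without H and I the list median was 0.35, with 21 of 25 above 0. Genes of the exocrine pancreas were near 0 throughout, summing to between 3.28 and 15.4 CPM in any pool of either group. The digestive protease prss1 had medians of 0.837 CPM in DMSO and 0.866 in 0.88 µM, and pla2g1b was at 0 in all 12 pools.

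**Figure D3:**
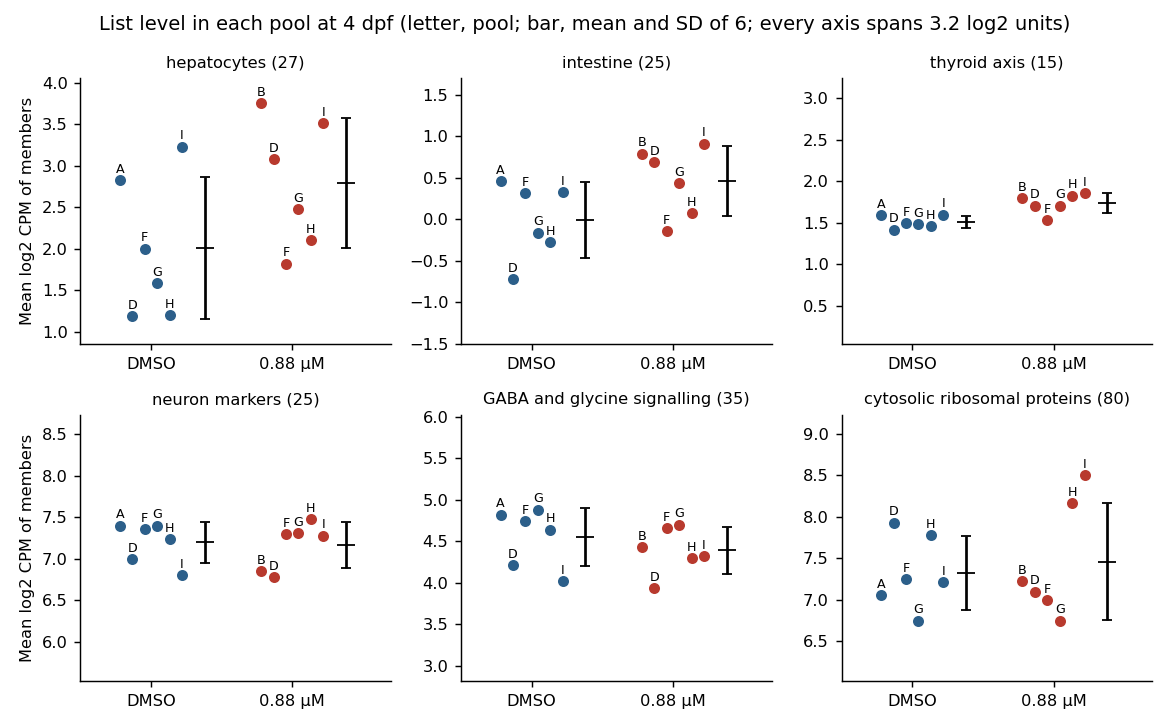
Each point is the mean log2 CPM of a list's tested members (y axis, the same span in every panel) in 1 pool at 4 dpf, blue for DMSO and red for 0.88 µM PFOS, with the letter of the pool; bars give the mean and SD of 6 pools. Hepatocyte levels spread from 1.19 to 3.75 with much overlap, thyroid axis levels lie close together at 1.42 to 1.86, and the ribosomal list is highest in PFOS pools H and I (8.17 and 8.50).

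The receptors through which PFOS is thought to act on lipid metabolism were close to their DMSO levels. The log2 fold change was -0.22 ± 0.18 for pparaa, 0.03 ± 0.21 for pparab, 0.15 ± 0.26 for pparda, -0.14 ± 0.15 for ppardb and 0.13 ± 0.21 for pparg. Their 95% intervals lay between -0.57 and 0.68. Of 43 genes of PPAR signalling and fatty acid oxidation, 26 were above 0 and 17 below, with a median of 0.06, and 0.13 without H and I. The gateway enzyme of mitochondrial oxidation, cpt1aa, had medians of 18.3 CPM in DMSO and 17.8 in 0.88 µM, with an interval of -0.33 to 0.20. The PPAR targets pdk4 (-0.09 ± 0.25) and angptl4 (0.06 ± 0.31) were also near 0. The exception at an unadjusted p under 0.05 was the fatty acid transporter and acyl-CoA synthetase slc27a2a, a liver enzyme in mammals: it ranged from 7.26 to 27.3 CPM in DMSO and from 18.5 to 71.5 in 0.88 µM, the latter in pool I. Its log2 fold change of 1.07 ± 0.53 was 0.64 without H and I.

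Fatty acid binding proteins carry fatty acids within cells, and PFOS is among the ligands of the liver form. All 9 had a log2 fold change above 0, with a median of 0.46, yet the medians over pools of fabp3 (32.5 CPM in DMSO, 26.3 in 0.88 µM), fabp7b (2.88 and 2.27) and fabp11b (1.91 and 1.19) were lower in PFOS. Without pools H and I the list median was -0.13, with 2 above 0 and 7 below, so the direction rests on those 2 pools. The brain form fabp7a, of radial glia, had 50.5 and 51.1 CPM and an interval of -0.27 to 0.43. The 29 genes of cholesterol synthesis had a median of 0.06, with 16 above 0 and 13 below. The rate-limiting hmgcra had an interval of -0.43 to 0.18 and hmgcs1 one of -0.36 to 0.25.

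Transporters of organic anions help to set where an anion such as PFOS goes. Of 29 such transporters and ATP-driven exporters, 24 had a log2 fold change above 0, with a median of 0.19. An unadjusted p under 0.05 was found for 2 of the 29, against 1.96% of all genes. The uptake transporter slco1d1, known in zebrafish to carry PFOS, ranged from 5.18 to 10.5 CPM in DMSO (median 5.61) and from 6.43 to 18.1 in 0.88 µM (median 12.5). In slco1d1 4 of 6 PFOS pools lay above every DMSO pool, and the log2 fold change was 0.81 ± 0.32 (unadjusted p = 0.0146 by edgeR), and 0.76 without H and I. The exporter abcc2, which moves conjugates into bile, reached 21.0 CPM in DMSO (median 13.9) and ranged from 14.5 to 34.4 in 0.88 µM (median 23.6). Its log2 fold change was 0.72 ± 0.33, and 0.68 without H and I. The bile salt exporter abcb11b had 0.67 ± 0.42. abcb4, which protects fish embryos by pumping out foreign compounds, had 0.21 ± 0.19. The brain form slco1c1 was at 8.27 CPM in DMSO and 8.38 in 0.88 µM (-0.02 ± 0.15). slco1d1, abcc2 and abcb11b are genes of the liver as well. DMSO pool I, high in hepatocyte genes, also held the highest DMSO values of slco1d1 and abcc2, and the part of the hepatocyte share in them was not tested.

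Enzymes and receptors that handle foreign compounds held no member at an unadjusted p under 0.05. Of 33, 22 were above 0, with a median of 0.22. cyp1a, the target of the aryl hydrocarbon receptor, had medians of 1.11 CPM in DMSO and 1.86 in 0.88 µM (0.73 ± 0.46), while cyp1b1, another target, had -0.18 ± 0.22. cyp3a65, a target of the pregnane X receptor nr1i2, had 0.30 ± 0.43 and the receptor itself 0.04 ± 0.34. The oxidative stress regulator nfe2l2a had 0.02 ± 0.24 and its target gclc an interval of -0.10 to 0.36. In the 25 genes of that response the median was 0.10, and 0.06 without H and I. The 25 heat shock genes had a median of -0.03, and -0.01 without H and I.

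The thyroid axis held duox. Of its 15 genes, 11 had a log2 fold change above 0, with a median of 0.20, and the mean level was 1.51 ± 0.07 log2 CPM (SD, n = 6) in DMSO and 1.74 ± 0.12 (n = 6) in 0.88 µM. The groups overlapped in this level: PFOS pool F, at 1.53, lay below DMSO pools I and A, which stood at 1.59 and above. Without H and I the median was 0.12, with 12 of 15 above 0. Thyroglobulin tg, the precursor of the hormone, had medians of 77.2 CPM in DMSO and 93.0 in 0.88 µM (0.20 ± 0.22). The iodide transporter slc5a5 was at 0.187 CPM in both, and the thyrotropin receptor tshr had -0.11 ± 0.46. Transthyretin ttr, a hormone carrier made in the liver that PFOS can occupy in mammals, had 0.284 CPM in DMSO and 0.815 in 0.88 µM (1.28 ± 0.78). The deiodinases dio1 (0.44 ± 0.33), dio2 (0.19 ± 0.23) and dio3b (-0.07 ± 0.33) and the receptors thraa (-0.04 ± 0.16) and thrb (-0.24 ± 0.24) had no unadjusted p under 0.05. Of the stress axis, the corticosteroid receptor nr3c1 had an interval of -0.33 to 0.32, its target fkbp5 one of -0.55 to 0.57, and crhb, which starts the axis, had 0.42 ± 0.32.

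The medians of the neuron, channel, transmitter and neuropeptide lists lay between -0.17 and 0.11. The upper end was the neuropeptide list, with 14 above 0 and 7 below, and without H and I it had -0.22, with 3 above and 18 below. The 25 neuron markers had a median of 0.00, with 13 above 0 and 12 below, and summed to between 5874 and 9218 CPM in DMSO (median 8725) and between 5944 and 12066 in 0.88 µM (median 9279). Without H and I their median was -0.15. Of 35 genes of GABA and glycine signalling, 30 had a log2 fold change below 0, with a median of -0.17 against 0.01 over all genes and none at an unadjusted p under 0.05; without H and I the median was -0.12. The GABA-making enzymes gad2 (-0.27 ± 0.27) and gad1b (-0.08 ± 0.21), the GABA carrier slc6a1a (-0.27 ± 0.27) and the glycine receptor subunit glra3 (-0.34 ± 0.23) were below 0, and gphna and gphnb, which anchor GABA and glycine receptors, above it, at 0.12 ± 0.22 and 0.13 ± 0.26. The mean level of the list was 4.55 ± 0.35 log2 CPM (SD, n = 6) in DMSO and 4.39 ± 0.28 (n = 6) in 0.88 µM, a difference under either SD. Neuron marker levels were 7.20 ± 0.25 and 7.17 ± 0.28, and the lowest GABA levels, 3.93 in PFOS pool D, 4.02 in DMSO pool I and 4.21 in DMSO pool D, were in pools low in neuron markers. The next lowest, 4.30 and 4.32, were in PFOS pools H and I, whose neuron marker levels were 7.48 and 7.28, and PFOS pool B, at 6.85 in neuron markers, had 4.43. The part of neuron marker levels in the GABA values was not tested.

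Glutamate signalling held 1 gene at an unadjusted p under 0.05. The vesicular glutamate transporter slc17a7a ranged from 23.2 to 32.6 CPM in DMSO (median 30.5) and from 13.1 to 29.5 in 0.88 µM (median 24.5), and its -0.32 ± 0.16 was -0.12 without H and I. Its relative slc17a6b had -0.16 ± 0.22. Of the 41 genes of the list 25 were below 0, with a median of -0.06, and -0.12 without H and I. Of 35 voltage-gated channels 27 were below 0, with a median of -0.08, and -0.16 without H and I; the sodium channel scn1lab, needed for normal excitability, had an interval of -0.69 to 0.40. Dopamine and serotonin genes had a median of -0.12 over 26, with the dopamine enzyme th at 5.63 CPM in DMSO and 6.06 in 0.88 µM (0.06 ± 0.24). Activity-induced genes gave a median of 0.02 over 29, with egr1 at 0.11 ± 0.33 and npas4a at -0.22 ± 0.50. The 35 clock genes had a median of -0.09 with 26 below 0, but -0.00 with 18 below 0 without H and I. The clock repressors per1b (0.01 ± 0.13) and nr1d1 (0.01 ± 0.15) were near 0, and the clock output factor dbpa had -0.27 ± 0.16. The cone photoreceptor list had a median of -0.09, with 10 above 0 and 20 below, and 0.06, with 22 above and 8 below, without H and I. The rod list had -0.04 with all pools and 0.01 without H and I. The appetite peptide cart2 (0.95 ± 0.37) and the glial calcium-binding protein s100b (0.79 ± 0.30) were the members of the neuropeptide and glial lists at an unadjusted p under 0.05. Both had a mean under 1 log2 CPM, as did ahsg1, pla2g12b, npsn and lect2l, and are named because they make up the counts.

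Skeleton, skin and blood lists had small medians above 0. Of 29 cartilage genes 24 were above 0, with a median of 0.12: the collagen col2a1a had medians of 22200 CPM in DMSO and 28000 in 0.88 µM (0.36 ± 0.23) and sox9a, which directs cartilage formation, 0.12 ± 0.15. Of 19 bone and tooth genes 15 were above 0, with a median of 0.16, and 0.06 without H and I. Only sp7 of the list had an unadjusted p under 0.05; the mineralisation enzyme alpl had -0.30 ± 0.19. Of 33 fibroblast matrix genes 28 were above 0, with a median of 0.10, and 0.16 without H and I; fn1b led them. Pool D, with the highest matrix level (6.67 log2 CPM), carried the highest fn1b. Epidermis had a median of 0.15 over 31 genes, red blood cells 0.25 over 19, endothelium 0.12 over 26, macrophages and microglia 0.01 over 17 and interferon genes -0.01 over 19. Without H and I these medians were 0.17, 0.07, 0.15, 0.13 and 0.13. Some medians depended on other pools. Leaving out PFOS pool D gave 0.03 for bone and tooth, 0.02 for epidermis and 0.01 for endothelium. Leaving out DMSO pool I gave 0.28, 0.28 and 0.21. These pools, each the lowest of its group in neuron markers, were the highest of their groups in all 3 lists and in cartilage. The part of such tissue differences in these lists was not tested. At an unadjusted p under 0.05 the macrophage list held 1 member, higher in PFOS. The interferon list held 1, lower in PFOS, against 1.96% of all genes. Among 19 neutrophil and inflammation genes, npsn (0.69 ± 0.34) and lect2l (1.93 ± 0.92) had an unadjusted p under 0.05, against 1.96% of all genes. Both were at medians near or under 1 CPM.

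Ribosomal protein genes were high in pools H and I. Of 80 cytosolic ribosomal protein genes, 76 had a log2 fold change above 0, with a median of 0.23, and rps27.2 had an unadjusted p under 0.05 at 0.50 ± 0.24, and 0.11 without H and I. The mean level of the list was 8.17 and 8.50 log2 CPM in PFOS pools H and I, and 6.75 to 7.23 in the other 4 PFOS pools against 6.75 to 7.93 in DMSO. Without H and I the median was -0.31, with 6 above 0 and 74 below. Nuclear genes of oxidative phosphorylation also had medians of opposite sign, at 0.17 over 52 genes with all pools and -0.21 without H and I. Over the 48 lists, 20 of 1274 distinct tested members (1.57%) had an unadjusted p under 0.05, 18 higher and 2 lower, against 1.96% of all genes.

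**Figure D4:**
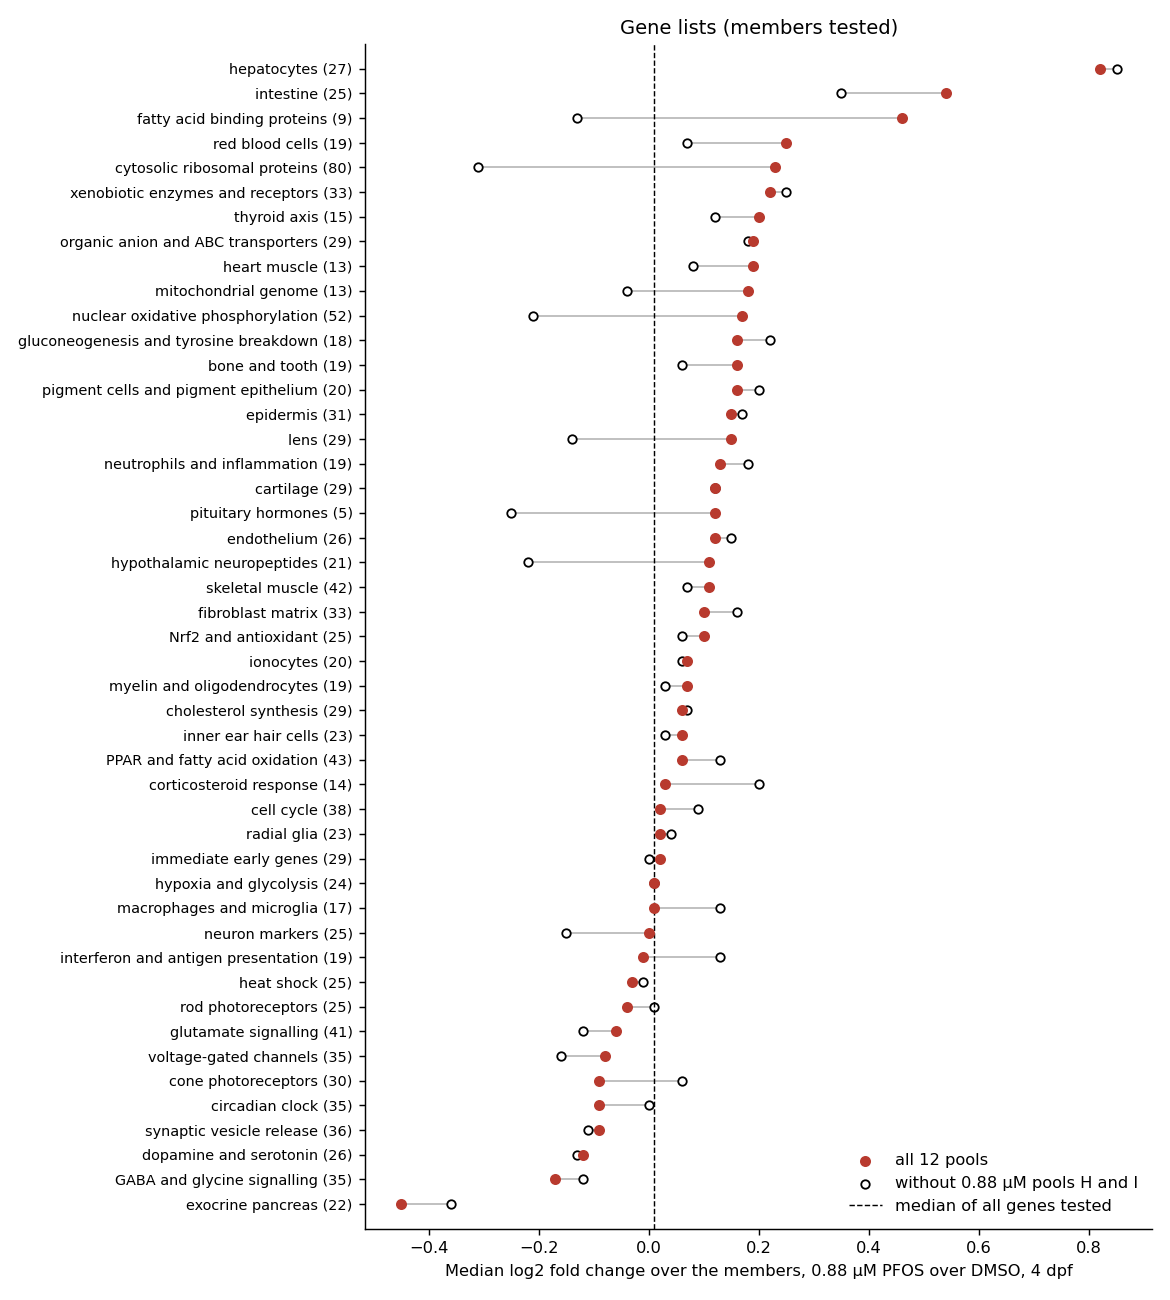
Each row is 1 of 47 gene lists with its number of tested members, and the x axis gives the median log2 fold change of its members, 0.88 µM PFOS over DMSO at 4 dpf, with all 12 pools (filled) and without PFOS pools H and I (open); the dashed line is the median of all genes (0.01). Hepatocytes (0.82 and 0.85) and intestine (0.54 and 0.35) lie farthest to the right in both, and ribosomal proteins (0.23 and -0.31) and fatty acid binding proteins (0.46 and -0.13) cross 0.

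Larvae kept in the same concentration to 5 dpf, with 6 DMSO pools of that age, gave separate values for these genes. There too 0 of 20021 genes (0%) passed an adjusted p of 0.05, with a lowest adjusted p of 0.274 by edgeR, and 1038 (5.18%) had an unadjusted p under 0.05. The difference between the effects at the 2 ages, tested as an interaction, passed for 0 genes (0%), with 495 (2.47%) at an unadjusted p under 0.05. Across the 20021 genes, which are not independent, the log2 fold changes at the 2 ages correlated at r = 0.12 and had the same sign in 60% of genes. Among the 392 genes at an unadjusted p under 0.05 at 4 dpf, the sign was the same at 5 dpf in 218 (55.6%). Only 10 genes had an unadjusted p under 0.05 at both ages, 8 of them with the same sign. At 5 dpf pool H of 0.88 µM correlated with the other 5 dpf libraries at a median of only 0.915, against 0.959 to 0.974 for the other 11.

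Since these genes were chosen by their 4 dpf values, which enter the difference between ages, p-values of that difference are too small for them. Unadjusted ones are left out. Of the 24 named genes, 13 had the same sign at 5 dpf, 6 of the higher and 7 of the lower, and 0 of them had an unadjusted p under 0.05 there with the same sign. duox had -0.39 ± 0.25 at 5 dpf, with medians of 1.33 CPM in 0.88 µM and 1.93 in DMSO, and the difference between ages was 1.06. chga kept its sign at -0.23 ± 0.14, with 6.92 and 8.31 CPM. extl3 had -0.11 ± 0.15, c3a.2 -0.04 ± 0.51, hal -0.02 ± 0.52 and sp7 0.12 ± 0.25. sec16b, the gene with the smallest p at 4 dpf, had -0.59 ± 0.29 at 5 dpf, where DMSO stood at a median of 1.94 CPM and 0.88 µM at 1.17; the difference between ages was 1.78 (adjusted p about 1 by edgeR). Liver and gut lists had the other sign at 5 dpf: the median was -0.52 over hepatocyte and -0.81 over intestine genes, where fabp10a had medians of 102 CPM in DMSO and 78.5 in 0.88 µM. GABA and glycine genes had a median of 0.09 at 5 dpf and the thyroid axis 0.09.

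**Figure D5:**
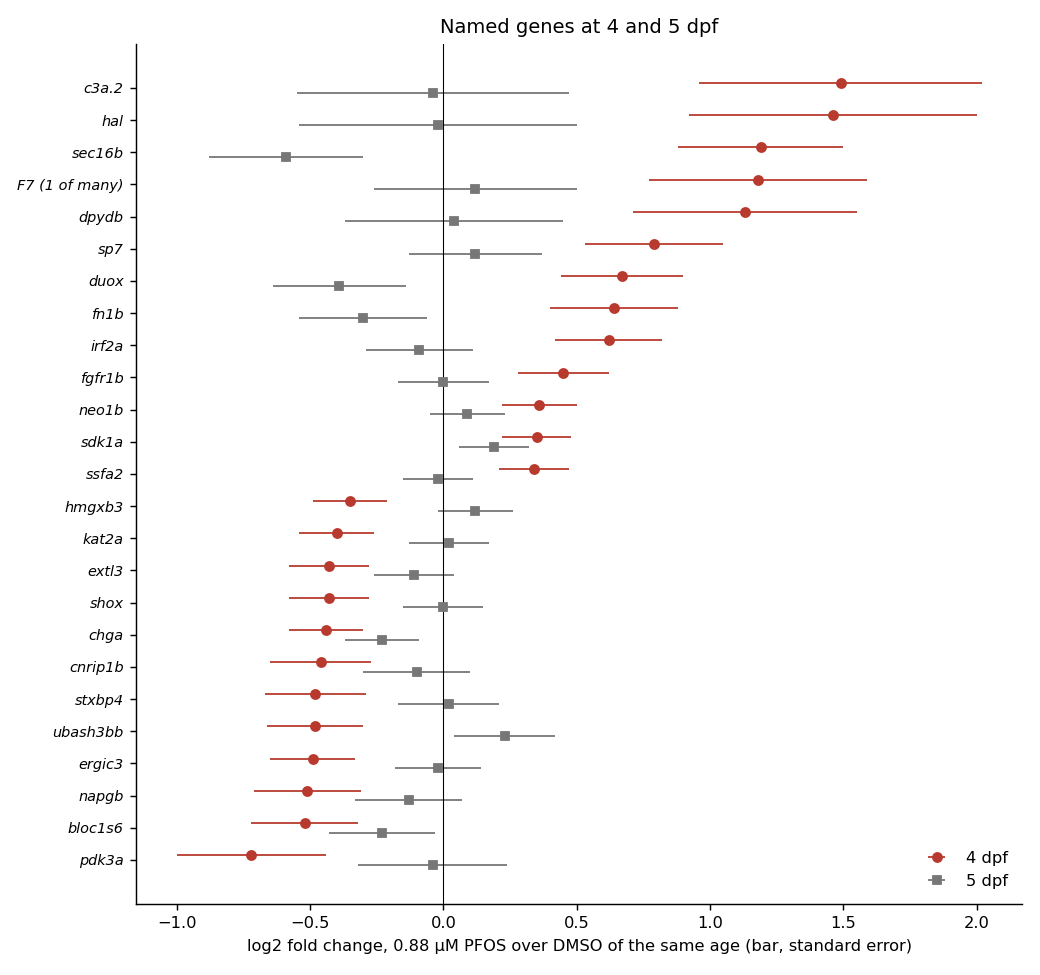
For the 24 named genes and sec16b, the log2 fold change of 0.88 µM PFOS over DMSO of the same age (x axis) is shown with its standard error, red circles for 4 dpf and grey squares for 5 dpf. The 4 dpf values, which chose the genes, lie between 0.34 and 1.49 in size, while the 5 dpf values gather around 0 and those of duox (-0.39) and sec16b (-0.59) lie on the other side.

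The higher concentrations at 4 dpf were set beside 0.88 µM in the same fit. Directly against 1.57 µM, 0 genes passed (0%), with 418 (2.09%) at an unadjusted p under 0.05 and a lowest adjusted p of 0.988 by edgeR. Against 2.8 µM, 0 genes passed (0%), with 550 (2.75%) at an unadjusted p under 0.05. The median standard error of both differences was 0.25. Comparisons of each concentration with DMSO share the same 6 DMSO pools, so only their values are set side by side. duox had medians of 3.88 CPM in DMSO, 6.34 in 0.88 µM, 5.14 in 1.57 µM and 6.48 in 2.8 µM, and log2 fold changes of 0.67, 0.45 and 0.64. chga had 10.7, 7.83, 8.36 and 8.74 CPM, and log2 fold changes of -0.44, -0.36 and -0.24. extl3 had 21.1, 16.7, 17.8 and 16.1 CPM, and -0.43, -0.23 and -0.38. shox had 24.9, 16.9, 20.3 and 18.9 CPM, and -0.43, -0.29 and -0.40. irf2a had log2 fold changes of 0.62, 0.57 and 0.41, and napgb had -0.51, -0.40 and -0.46. Some other named genes stood near 0 at both higher concentrations. In the same order the log2 fold changes were -0.49, -0.03 and -0.10 for ergic3, 0.45, 0.07 and 0.03 for fgfr1b, and 0.35, 0.00 and -0.01 for sdk1a. The shared DMSO pools also took part in choosing all these genes, so a like value at another concentration is no separate evidence.

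The 0.88 µM pools that chose the named genes also enter their direct differences from 2.8 µM, which are given as descriptions. The log2 differences were 0.42 for fgfr1b, 0.36 for sdk1a and 0.32 for neo1b, with every adjusted p of edgeR's test about 1. These are genes that were highest in pools H and I. c3a.2 had medians of 11.3 CPM in DMSO, 31.0 in 0.88 µM, 35.2 in 1.57 µM and 12.7 in 2.8 µM, with log2 fold changes of 1.49, 1.12 and 0.31. Its difference between 0.88 and 2.8 µM was 1.18. fabp10a had 2.32, 6.14, 3.22 and 3.85 CPM and slco1d1 5.61, 12.5, 10.4 and 7.36 CPM in the same order, and the log2 differences of 0.88 from 2.8 µM were 0.63 and 0.60. At 0.88, 1.57 and 2.8 µM the hepatocyte list had median log2 fold changes from DMSO of 0.82, 0.39 and -0.15. The intestine list had 0.54, 0.32 and 0.09. The hepatocyte median at 2.8 µM does not stand for every member. There fabp10a had 1.00 ± 0.72, gc 0.91 ± 0.52 and apoa2 0.88 ± 0.65, though these were picked by their 0.88 µM values against the same DMSO pools. The 2.8 µM group also includes pool A, a library of low correlation. In the same order of concentrations the list medians were 0.20, -0.05 and 0.08 for the thyroid axis, and -0.17, -0.25 and -0.37 for GABA and glycine signalling. Values below 0 at both higher concentrations were not particular to that list. Voltage-gated channels had -0.08, -0.31 and -0.43, and glutamate signalling -0.06, -0.19 and -0.27. Synaptic vesicle release had -0.09, -0.19 and -0.18, dopamine and serotonin -0.12, -0.27 and -0.15, and neuron markers 0.00, -0.15 and -0.13. The neuropeptide list had 0.11, -0.10 and 0.31.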

How the data were processed

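PolyA libraries were made from 500 ng of RNA and read for 75 cycles in 3 randomised sequencing pools, per the labels' protocols; which library was in which is not given. The submitters' processing notes name GRCz11, STAR 2.5.3a and Partek 8.0.19.0428, without their roles. For the annotation and strand setting, nothing is given in the sources used here. The authors deposited a raw table whose values, 81.2% of them whole within 0.01, were taken for expected counts per gene since no source names the unit and, in another table, log2 values after quantile normalization, used only for an alternative. Coordinates are those of the deposited tables.

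Expected counts were rounded, filtered with filterByExpr (20021 genes kept, with at least 99.93% of any library's counts), and TMM factors were applied. A single fit, in edgeR 4.0.16 under R 4.3.3, took in the 48 libraries as 8 groups without covariates; it assumes that groups vary alike. Contrasts used its quasi-likelihood test, and Benjamini-Hochberg adjustment ran over every tested gene. A standard error is the size of the log2 fold change divided by √F, and intervals are 95%. CPM values are TMM-scaled, and log2 CPM used a prior count of 2. The fit was also run on simulated counts, drawn independently for each gene without shared shifts between pools. That run therefore does not measure how the fit behaves with the pool differences seen here. Genes named are the 12 with the smallest p in each direction at a mean log2 CPM of at least 1 with a gene symbol, up to 3 members of each list at an unadjusted p under 0.05, and the gene with the smallest p; others are named for a known role in a list, or as stated. The 48 lists held 1431 entries, 1363 in the table and 1284 tested. Some genes and 1 list are not reported here. Members and lists were chosen with earlier results of these data known. Alternatives used limma 3.58.1, DESeq2 1.42.0 and sva 3.50.0.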

Additional observations from a re-analysis of the deposited data

Results flagged for a closer look

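In groups of 6 pools, a sample was marked where its gap to the nearest other pool took up most of the group's range, and chance marks about 1 in 20 groups. Of 162 groups examined (named genes and list levels in 0.88 µM PFOS and DMSO at 4 dpf), 8 were marked (4.94%), close to that share. DMSO pool I was marked 5 times, each time as the highest: for cholesterol synthesis at 3.22 mean log2 CPM (other DMSO pools 2.95 to 3.02), organic anion and ABC transporters at 2.62 (2.15 to 2.32), ionocytes at 3.66 (3.15 to 3.25), endothelium at 2.96 (2.48 to 2.66) and myelin and oligodendrocytes at 3.26 (3.08 to 3.14). PFOS pool D was marked as highest for fibroblast matrix at 6.67 (other PFOS pools 6.05 to 6.22) and endothelium at 3.05 (2.65 to 2.77). PFOS pool I was marked for sp7, at 2.94 log2 CPM against 1.38 to 1.81 in the other 5.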

How the results depend on the processing

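The count of genes past an adjusted p of 0.05 between 0.88 µM PFOS and DMSO at 4 dpf was 0 in each of 24 other settings, with a lowest adjusted p of 0.316 under limma with sample quality weights. Over 5 shared letters of the pools, the deviations correlated at -0.13 to 0.35, 2 of them over 0.1. Only 1 sample correlated best with its own letter. So few single pools cannot settle whether the letters pair the samples. The replicate block gave 0 genes past the threshold. The count of 392 at an unadjusted p under 0.05 was 823 with no filter, 1339 with the replicate block, 1142 with quality weights, 1050 with 3 surrogate variables, 721 without the 3 libraries of low correlation and 260 without 0.88 µM pools H and I, a setting chosen after seeing the data; 117 of the 260 were among the 392, all with the same sign. Since that fit shares most of its pools with the main one, the same signs are no separate evidence. Leaving out 1 pool in turn gave 229 (without PFOS pool I) to 721 (without PFOS pool B). The 3 libraries of low correlation were outside the 12 compared. They were pool A of 2.8 µM at 4 dpf, and pools D of 1.57 µM and H of 0.88 µM at 5 dpf. The causes were not tested. Leaving out 1 pool gave 0 in each adjusted count, the contrasts with 5 dpf, 1.57 and 2.8 µM included. The difference between ages passed for 1 gene, sec16b, with quality weights (1.91, adjusted p = 0.0323 by limma). With 3 surrogate variables it passed too (1.77, adjusted p = 0.028 by edgeR). Every other setting, the main fit included, gave 0 genes for this difference. sec16b also stood at a low level, with medians of 0.643 to 1.94 CPM in the groups compared. The contrast of 0.88 with 1.57 µM had 1 gene with quality weights, TSC22D3 (-3.93, adjusted p = 0.0427 by limma), at a median of 0 CPM in 0.88 µM and 0.231 in 1.57 µM. The 33 named genes kept their sign in all 24 settings. Those settings reuse most or all of the pools that chose the genes, so this is no separate evidence. Of the 48 list medians 18 stayed on one side of 0 in all settings, hepatocytes (0.52 to 1.22), intestine (0.20 to 0.67), thyroid axis (0.12 to 0.30) and GABA and glycine signalling (-0.27 to -0.07) among them. Ribosomal proteins ran from -0.31 to 0.41.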
